A study of Mus musculus with 9 samples.

Results

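MLO-Y4 cells kept for 48 h with stimulated chondrocytes were compared with cells kept with unstimulated chondrocytes. All genes that carried enough reads to be tested were examined. MLO-Y4, derived from mouse long bone, is a single clonal line with osteocyte features, so it stands for osteocytes only in part. The comparison used 6 of the 9 libraries of the study, 3 from cells kept with unstimulated chondrocytes (control) and 3 from cells kept for 48 h with chondrocytes that had received interleukin-1β (IL-1β) at 10 ng/mL for 6 h beforehand. In both groups the cells grew on collagen-coated plates beneath inserts with 1.0 µm pores that held primary articular chondrocytes of C57BL/6J mice aged 5 to 6 days, so the cell types shared medium without direct contact. The control culture received no stated time. Stimulation and time in culture therefore cannot be told apart in any value below. The labels give the cell line of the 48 h libraries as MLO-Y5, MLO-Y6 and MLO-Y7, one name per library, while the protocols speak of MLO-Y4 throughout. Nothing in the sources states that the 3 libraries of a group came from separate cultures, so p-values measure the spread between these libraries, which may be technical.

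RNA abundance follows the work a cell is doing. A dividing cell spends much of its transcription on ribosomes, on the enzymes that charge tRNA, on chaperones and on the proteins of the mitotic spindle, and these gene groups tend to move together. Osteocytes are embedded, largely non-dividing cells of bone that signal to osteoclasts and osteoblasts, and as a line MLO-Y4 keeps dividing in culture. IL-1β makes chondrocytes release cytokines and matrix-degrading enzymes, which in a transwell can reach the neighbouring cells through the medium.

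Gene levels are given as CPM, the count of a gene scaled to its library's total and a TMM factor, which is a relative level within a library. In such bulk libraries, fewer cells of a type and less RNA per cell cannot be told apart. Of 56748 genes in the table, 13812 passed the filter on low counts and were tested, and these held 99.9% of the reads. Total counts ran from 12250628 to 15956441 in the control libraries and from 16458398 to 18515456 at 48 h. Within groups, the chi-square per degree of freedom between any 2 libraries was 2.26 to 8.14, above the counting error alone, and the first principal component of all 9 libraries held 51.7% of the variance. On that component the 48 h libraries scored 36.7 to 38.2 and the control libraries -18.4 to -15.4. The libraries of 24 h stimulated co-culture scored -21.8 to -19.1. A gene was called when its edgeR quasi-likelihood test gave an adjusted p under 0.05. Gene positions are those of the count table (GRCm39).

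The labelled cell type was checked against its markers. Of 29 osteocyte and osteoblast markers, 23 were tested, and several were missing. Sost, Mepe, Fgf23, Ibsp and Dkk1 had 0 reads in all 6 libraries, and Dmp1 had at most 3. Other markers of the list were present, among them Pdpn with 2640 to 4275 reads and Phex with 157 to 363 reads per library. Of 20 chondrocyte markers, 8 had 0 reads in all 6 libraries, including the cartilage genes Acan, Matn1 and Col9a1, and Col2a1 had at most 6 reads in any of them. The summed level of the chondrocyte list was 1789 to 1864 CPM in the control and 2312 to 2380.1 CPM at 48 h. Prg4, which encodes lubricin and is also made by synovial and bone surface cells, made up most of that sum, with 1558, 1566 and 1605 CPM in the control libraries and 2086, 2052 and 2003 CPM at 48 h. Of 18 leukocyte and macrophage markers, 9 had 0 reads in all 6 libraries, and the list summed to 19.3 to 21.1 CPM in the control and 21.8 to 24.6 CPM at 48 h, a narrow gap. Of 9 adipocyte markers, 4 had 0 reads in all 6 libraries, and the list summed to 14.5 to 16.8 CPM in the control and 21.9 to 23.2 CPM at 48 h. The sums of these 3 lists were thus higher at 48 h, while the defining genes of cartilage and the pan-leukocyte gene Ptprc stayed at or near 0. The part of such cells or their RNA in the matrix, lipid and immune results below was not tested.

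At 48 h the change was broad and mostly of moderate size. The test called 6408 genes, 46.4% of those tested, of which 3039 were higher (22.0%) and 3369 lower (24.4%). Control and 48 h libraries did not overlap for 53.1% of tested genes, with all 48 h libraries above for 25.7% and below for 27.4%. The larger folds were mostly upward. Of the called genes, 525 were higher and 180 lower with an absolute log2 change of at least 1, which is 3.80% and 1.30% of tested genes. In the range from 0.5 to 1 the directions were close to even, with 894 higher and 880 lower genes. From 0.25 to 0.5 there were 1105 higher and 1556 lower genes, and below 0.25 there were 515 and 753. The median log2 fold change over all tested genes was -0.002.

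Calls became more frequent with abundance. When the tested genes were split into 10 equal bins by their mean level, 14.8% were called in the lowest bin and 66.6% in the highest, where 377 genes were higher and 544 lower. The lowest bin held more higher than lower genes, 147 against 57. Called genes had a median absolute change of 1.44 on the log2 scale in the lowest bin and 0.33 in the highest. Low genes need a larger change to be called, which is part of this gradient by construction. Among the 2435 genes with a mean of at least 100 CPM, which together held 68.5% of the control CPM, 651 were higher and 921 lower, or 64.6% in all. Among the 232 genes with at least 500 CPM, 66 were higher and 104 lower, or 73.3%.

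**Figure D1:**
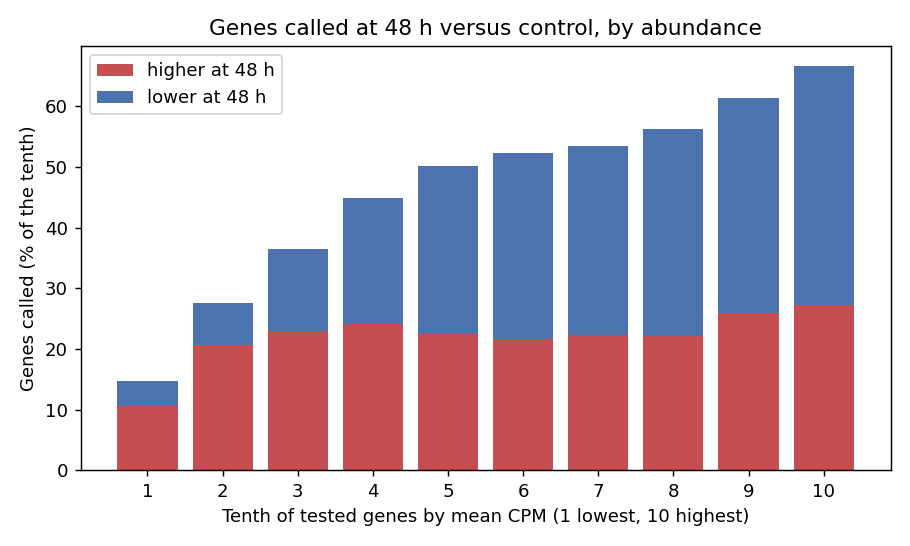
Share of tested genes called higher (red) or lower (blue) at 48 h, in percent of each of 10 equal bins of genes ranked by mean CPM from lowest (1) to highest (10). The share rises from 14.8% to 66.6%, and from bin 5 upward lower genes outnumber higher genes.

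Most members of the ribosome biogenesis, translation factor, tRNA synthetase, chaperone, proteasome, splicing and division lists were lower by a moderate amount. Of the ribosomal protein genes, 44.7% were lower in the large and 34.4% in the small subunit. Most tested members of the hypoxia, glycolysis, interferon and complement lists were higher, with a wide spread among members. So were more than a background share of matrix and lipid genes. Counts and medians of a list cover its tested members. The shares of all tested genes set beside them are not matched to a list by level. Among genes with a mean of at least 100 CPM, 26.7% were higher and 37.8% lower.

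**Figure D2:**
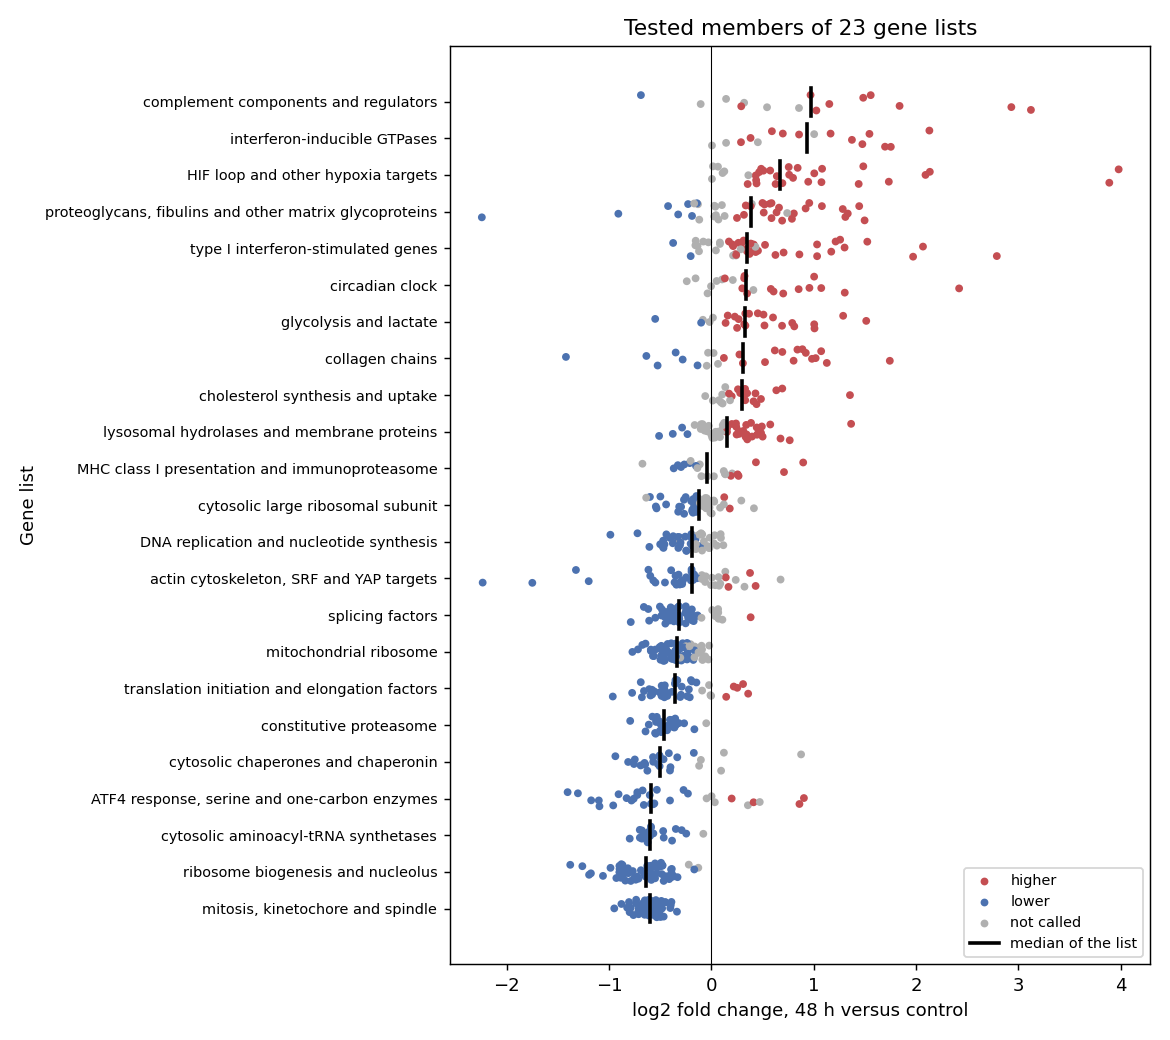
log2 change of each tested member of 23 gene lists, 48 h versus control, with called genes in red (higher) or blue (lower), others in grey and the median of each list as a black bar. Members of the mitosis, ribosome biogenesis, proteasome and tRNA synthetase lists sit in narrow bands below 0, while the hypoxia, interferon and complement lists spread widely above it.

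Ribosome biogenesis, the nucleolar work of making and processing ribosomal RNA, was among the most uniformly lower groups. Of its 60 tested genes, 58 were lower and 0 higher, against 24.4% and 22.0% of all tested genes, and the 2 others, Imp3 and Polr1c, had log2 changes of -0.22 and -0.13 without a call. The median log2 fold change was -0.64, and the summed level of the list went from a control mean of 7898 CPM ± 75.1 to 4945 CPM ± 63.4 at 48 h (SD, n = 3 each). Ncl, the nucleolar protein nucleolin (chromosome 1, 86272441 to 86287122), was at 1014, 951 and 955 CPM in the control libraries and 524, 529 and 513 CPM at 48 h. Every 48 h library was far below every control library, with a change of -0.90 ± 0.044 (SE) on the log2 scale (adjusted p 1.57e-11). Rrp12, needed for export and maturation of the pre-ribosomal subunits (chromosome 19, 41851290 to 41884612), stood at 46.6, 46.9 and 48.00 CPM in the control libraries and 19.9, 20.6 and 18.6 CPM at 48 h, again without overlap and with a change of -1.26 ± 0.068 (SE) on the log2 scale (adjusted p 6.43e-11). Rrp9, which binds the U3 small nucleolar RNA, had a change of -1.20 ± 0.078 (SE) on the log2 scale (adjusted p 6.94e-10). Nhp2 of the box H/ACA particles had the largest change in its list (-1.38 on the log2 scale, adjusted p 3.88e-12), and overlaps Rmnd5b on the opposite strand over 25.1% of its exons, so that its count is uncertain.

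RNA polymerase subunits and RNA helicases, taken as gene families by symbol, had more lower members than the 24.4% of all tested genes. Of 31 Polr genes, 18 were lower (58.1%) and 1 higher. Of 49 DEAD and DEAH box helicases, 29 were lower (59.2%) and 7 higher (14.3%, against 22.0%), with a median of -0.26. Of 13 small nucleolar RNA host genes, 7 were lower (53.8%) and 2 higher (15.4%).

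The proteins of the ribosome itself had median changes nearer 0. Of 47 genes of the large subunit, 21 were lower and 2 higher with a median of -0.12, and of 32 of the small subunit, 11 were lower and 2 higher with a median of -0.10. The summed level of the large subunit list was 21059, 22725 and 20095 CPM in the control libraries and 19926, 19555 and 18936 CPM at 48 h. The 48 h sums lay below the control sums by a margin smaller than the range of the control libraries. Rps2 was at 1930.2, 2115 and 1556 CPM in the control libraries and 1466, 1425 and 1351 CPM at 48 h, lower with a change of -0.40 ± 0.073 (SE) on the log2 scale (adjusted p 0.000179). Rpl27 was at 381, 421 and 357 CPM in the control libraries and 271, 263 and 265 CPM at 48 h, with a change of -0.54 ± 0.057 (SE) on the log2 scale (adjusted p 3.73e-07). Reads of ribosomal protein genes can match processed pseudogenes, which makes these counts uncertain.

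Translation factors were lower in 34 of 43 genes and higher in 5, with a median of -0.35. Eif5a, whose hypusine-modified product keeps ribosomes moving through difficult stretches (chromosome 11, 69807540 to 69812784), was at 1099.8, 1164 and 1037 CPM in the control libraries and 584, 554 and 554 CPM at 48 h. The control and 48 h libraries were clearly apart, with a change of -0.96 ± 0.045 (SE) on the log2 scale (adjusted p 8.2e-12). Eif3b, a scaffold subunit of the initiation factor eIF3, had a change of -0.77 ± 0.053 (SE) on the log2 scale (adjusted p 1.31e-09). In the other direction Eif4b, a cofactor of the mRNA helicase, was at 653, 650.3 and 655 CPM in the control libraries and 859, 819 and 835 CPM at 48 h, higher with a change of 0.36 ± 0.038 (SE) on the log2 scale (adjusted p 3.82e-07). Eef2, the elongation factor that moves the ribosome along its message, was also higher, at 3335, 3651 and 3429.9 CPM in the control libraries and 4227, 4083 and 4104 CPM at 48 h and with a change of 0.25 ± 0.036 (SE) on the log2 scale (adjusted p 1.34e-05). Eef1a1, the one with the highest CPM in its list, had overlapping libraries at 5494, 5657 and 5267 CPM in the control libraries and 5408, 5494 and 5416 CPM at 48 h, with a log2 change of -0.0088 and an adjusted p of 0.849.

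Cytosolic aminoacyl-tRNA synthetases, the enzymes that load amino acids onto tRNA, were lower in 19 of 20 genes. The exception was Qars, with a log2 change of -0.079 and an adjusted p of 0.232. The list had a median of -0.59, and its sum went from a control mean of 4392 CPM ± 90.0 to 3010 CPM ± 18.1 at 48 h (SD, n = 3 each). Tars (chromosome 15, 11382387 to 11399751), the threonine enzyme, was at 268, 272 and 266 CPM in the control libraries and 168, 164 and 164 CPM at 48 h, with no overlap and a change of -0.70 ± 0.045 (SE) on the log2 scale (adjusted p 5.53e-10). Aars, the alanine enzyme and the one with the highest CPM in its list, was at 534, 576 and 559 CPM in the control libraries and 371, 359 and 357 CPM at 48 h, with a change of -0.62 ± 0.043 (SE) on the log2 scale (adjusted p 1.71e-09). Mars1 had a change of -0.80 ± 0.053 (SE) on the log2 scale (adjusted p 9.66e-10), and it overlaps Ddit3 on the opposite strand over 47.2% of its exons.

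Many of these enzymes, together with serine, one-carbon and amino acid transport genes, are known targets of the stress-induced transcription factor ATF4. In a list of 31 such genes, 22 were lower and 4 higher, with a median of -0.59 and a sum that went from 3626 CPM to 2517 CPM. Atf4 itself (chromosome 15, 80139385 to 80141742) was at 453, 450.1 and 417 CPM in the control libraries and 264, 256 and 261 CPM at 48 h. Its libraries did not overlap, and it had a change of -0.76 ± 0.046 (SE) on the log2 scale (adjusted p 2.67e-10). Phgdh, the first enzyme of serine synthesis (chromosome 3, 98220486 to 98247306), was at 198, 214 and 183 CPM in the control libraries and 81.1, 70.4 and 73.4 CPM at 48 h, with a change of -1.41 ± 0.065 (SE) on the log2 scale (adjusted p 8.2e-12). Mthfd2, the mitochondrial folate enzyme downstream of serine, was at 152, 163 and 158 CPM in the control libraries and 69.5, 68.02 and 72.2 CPM at 48 h, with a change of -1.18 ± 0.053 (SE) on the log2 scale (adjusted p 5.23e-12). Chac1, which degrades glutathione, was at 16.6, 16.03 and 18.8 CPM in the control libraries and 7.08, 6.65 and 7.05 CPM at 48 h, with a change of -1.30 ± 0.10 (SE) on the log2 scale (adjusted p 9.67e-09). These 3 genes stood at less than their control level in every 48 h library. Ddit4, an inhibitor of the growth kinase mTORC1 that also responds to hypoxia, was higher instead, at 104, 108 and 112 CPM in the control libraries and 196, 196 and 213 CPM at 48 h and with a change of 0.90 ± 0.058 (SE) on the log2 scale (adjusted p 5.64e-10).

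The composite element to which ATF4 binds with a C/EBP partner has the core TGATGNAA. It was searched on both strands from 250 bases before to 50 after the start of each gene's canonical transcript (GRCm39, GENCODE M39). It occurred in 346 of 13773 promoters of tested genes, or 2.51%. It was found in 5 of 31 promoters of the ATF4 list and in 5 of 20 of the synthetase list. In the ATF4 list, 4 of 22 lower genes and 1 of 4 higher genes held it. In the synthetase list, 5 of 19 lower genes did. Stretches upstream of the starts of 2 lower genes, chosen after their values were seen, are shown with the matched letters in capitals. Slc7a11, the cystine importer, had a change of -0.83 ± 0.30 (SE) on the log2 scale (adjusted p 0.0301) with overlapping libraries, and Pycr1, a proline synthesis enzyme, a change of -0.57 ± 0.096 (SE) on the log2 scale (adjusted p 9.29e-05).
Slc7a11 (GRCm39 chr3:50398091-50398141, minus strand): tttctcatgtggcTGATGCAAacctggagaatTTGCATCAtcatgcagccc
Pycr1 (GRCm39 chr11:120534657-120534690, minus strand): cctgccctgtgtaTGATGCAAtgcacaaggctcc
The match is a description of letters and not of binding. The Slc7a11 stretch holds the element once on each strand.

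Protein folding and turnover genes were also lower. Of 26 cytosolic and mitochondrial chaperones, 21 were lower and 0 higher, with a median of -0.51 and a sum that went from a control mean of 11086 CPM ± 213 to 7681 CPM ± 108 at 48 h (SD, n = 3 each). Hspd1, the mitochondrial chaperonin HSP60, was at 567, 543 and 549 CPM in the control libraries and 290.0, 292 and 285 CPM at 48 h, without overlap and with a change of -0.94 ± 0.044 (SE) on the log2 scale (adjusted p 1e-11). Cct6a, a subunit of the cytosolic chaperonin that folds actin and tubulin, had a change of -0.76 ± 0.046 (SE) on the log2 scale (adjusted p 2.82e-10). Hsp90ab1, the constitutive HSP90 and the one with the highest CPM in its list, was at 2422, 2475 and 2417 CPM in the control libraries and 1903, 1816 and 1825 CPM at 48 h, lower in each library and with a change of -0.40 ± 0.034 (SE) on the log2 scale (adjusted p 2.74e-08). Of 32 subunits of the constitutive proteasome, 31 were lower, with Psmb1 as the exception (log2 fold change -0.050, adjusted p 0.48). The proteasome list had a median of -0.46 and went from a control mean of 5424 CPM ± 226 to 3984 CPM ± 78.2 at 48 h (SD, n = 3 each). Psmb3, a subunit of the catalytic core, was at 200.1, 204 and 188 CPM in the control libraries and 118, 112 and 112 CPM at 48 h, with a change of -0.79 ± 0.052 (SE) on the log2 scale (adjusted p 7.08e-10).

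RNA processing and nuclear transport followed. Of 51 splicing factors, 43 were lower and 1 higher, with a median of -0.32. Snrpa1, a protein of the U2 particle, was at 50.6, 55.4 and 45.4 CPM in the control libraries and 28.1, 29.4 and 30.2 CPM at 48 h, with a change of -0.79 ± 0.081 (SE) on the log2 scale (adjusted p 2.54e-07). The 1 higher gene was Srsf5, at 222, 199 and 207 CPM in the control libraries and 289, 275 and 257 CPM at 48 h and with a change of 0.38 ± 0.060 (SE) on the log2 scale (adjusted p 4.17e-05). Of 19 nucleoporins, the proteins of the nuclear pore, 18 were lower and 0 higher, with a median of -0.31.

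Mitochondrial genes were mostly lower as well. Of 77 nuclear genes for the mitochondrial ribosome, 61 were lower and 0 higher, with a median of -0.34. Of 36 complex I subunits 21 were lower and 2 higher, and of 43 subunits of complexes II to V 26 were lower and 0 higher, with medians of -0.21 for both lists. Cycs, cytochrome c, was at 150.4, 158 and 139 CPM in the control libraries and 75.8, 76.1 and 72.01 CPM at 48 h, with separate libraries and a change of -1.0 ± 0.057 (SE) on the log2 scale (adjusted p 1.14e-10). Atp5b, a catalytic subunit of the ATP synthase, was at 1541, 1626 and 1475 CPM in the control libraries and 1189.5, 1192 and 1187 CPM at 48 h, with a change of -0.38 ± 0.039 (SE) on the log2 scale (adjusted p 2.64e-07). Of the 13 proteins encoded by mitochondrial DNA, 4 were lower and 1 higher, and their summed level had 48 h libraries at 26716, 26086 and 25216 CPM against 27295, 27736 and 25676 CPM in the control, with overlapping ranges. mt-Nd2 was at 2726, 2767 and 2524 CPM in the control libraries and 2233, 2168 and 2063 CPM at 48 h, lower with a change of -0.31 ± 0.040 (SE) on the log2 scale (adjusted p 4.12e-06), while mt-Co1 was at 10238, 10271 and 9746 CPM in the control libraries and 11185, 10929.8 and 10731 CPM at 48 h, higher with a change of 0.12 ± 0.029 (SE) on the log2 scale (adjusted p 0.00246). Of 27 genes of the tricarboxylic acid cycle and pyruvate dehydrogenase, 18 were lower and 1 higher. That gene was Idh1, the cytosolic isocitrate dehydrogenase, at 62.97, 62.8 and 63.5 CPM in the control libraries and 107, 107 and 97.4 CPM at 48 h and with a change of 0.72 ± 0.059 (SE) on the log2 scale (adjusted p 1.4e-08). Mdh2, the mitochondrial malate dehydrogenase, had a change of -0.55 ± 0.047 (SE) on the log2 scale (adjusted p 2.6e-08).

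**Figure D3:**
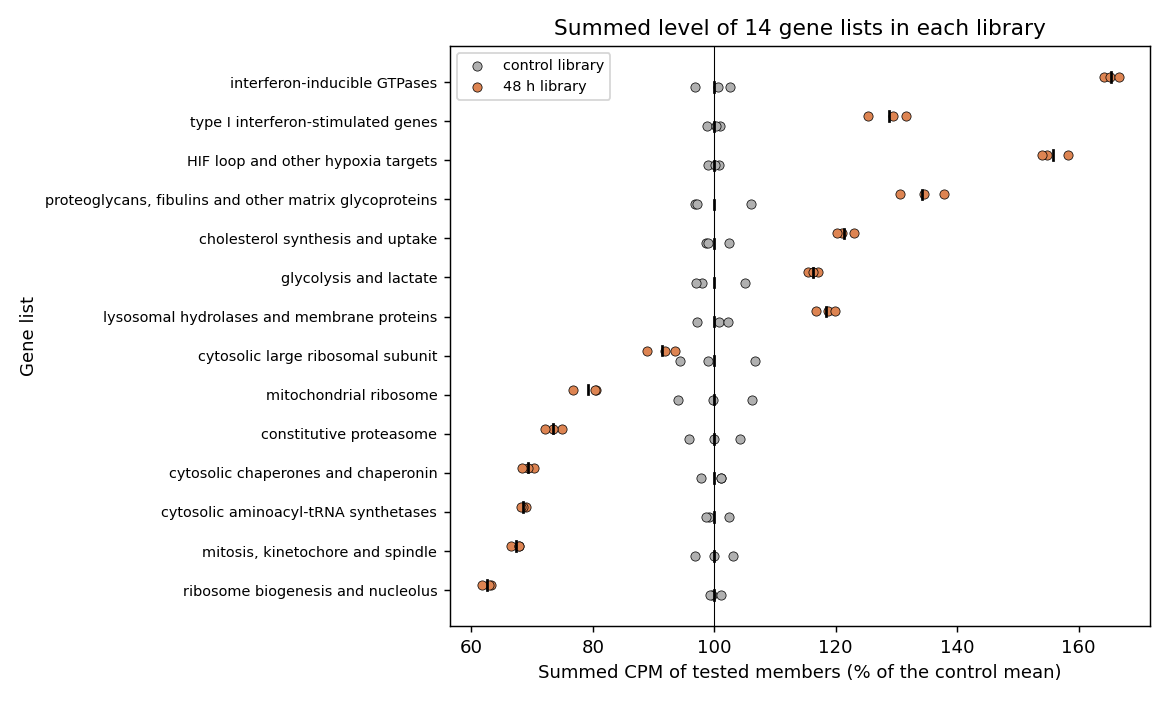
Summed CPM of the tested members of 14 gene lists in each library, in percent of the mean of the control libraries, with grey points for control, orange points for 48 h and a bar for the mean of each group. The 48 h sum of ribosome biogenesis lies near 63% of the control mean and that of interferon-inducible GTPases near 165%, and no list shown has overlapping groups.

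Cell division genes were lower without exception. All 58 tested genes of mitosis, the kinetochore and the spindle were called lower, against 24.4% of all genes, with log2 fold changes from -0.95 to -0.34 and a median of -0.60. The summed level of the list went from a control mean of 10153 CPM ± 318 to 6840 CPM ± 69.2 at 48 h (SD, n = 3 each). Plk1, the kinase that drives entry into mitosis (chromosome 7, 121758662 to 121769096), was at 150.2, 159 and 157 CPM in the control libraries and 77.9, 72.99 and 90.4 CPM at 48 h. All 48 h values were below all control values, with a change of -0.95 ± 0.066 (SE) on the log2 scale (adjusted p 1.77e-09). Ccnb1, the mitotic cyclin B1 (chromosome 13, 100915158 to 100923078), was at 193, 192 and 201 CPM in the control libraries and 111, 107 and 113 CPM at 48 h, also without overlap and with a change of -0.82 ± 0.049 (SE) on the log2 scale (adjusted p 2.21e-10). Top2a, the topoisomerase that untangles replicated chromosomes and the one with the highest CPM in its list, was at 1001, 942 and 1085 CPM in the control libraries and 685, 693 and 691 CPM at 48 h, with a change of -0.55 ± 0.045 (SE) on the log2 scale (adjusted p 1.57e-08). Of 34 kinesins taken by symbol, 18 were lower (52.9%) and 6 higher (17.6%).

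Genes of mitosis are known for a promoter layout with the cell cycle homology region (CHR), read here as TTTGAA, together with CCAAT boxes. In the same windows as above, TTTGAA was found in 31 of the 58 promoters, or 53.4%, against 14.3% of all 13773. CCAAT was found in 38, or 65.5%, against 39.0%. Both were searched on both strands, and a match of one can share its end letters with a match of the other. Stretches of 4 lower genes that hold both are shown, with the matches in capitals. They were chosen for the spacing of these motifs after the values were known. Cdk1, the partner of cyclin B1, had a change of -0.61 ± 0.049 (SE) on the log2 scale (adjusted p 1.17e-08), and Ccnf, cyclin F, a change of -0.65 ± 0.062 (SE) on the log2 scale (adjusted p 9.58e-08). Kif22, a motor that moves chromosome arms, had a change of -0.61 ± 0.063 (SE) on the log2 scale (adjusted p 2.88e-07).
Cdk1 (GRCm39 chr10:69188780-69188831, minus strand): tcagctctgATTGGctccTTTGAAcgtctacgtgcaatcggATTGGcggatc
Ccnf (GRCm39 chr17:24470480-24470537, minus strand): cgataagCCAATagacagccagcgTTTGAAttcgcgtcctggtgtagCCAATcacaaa
Top2a (GRCm39 chr11:98915153-98915211, minus strand): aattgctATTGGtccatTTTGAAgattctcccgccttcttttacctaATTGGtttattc
Kif22 (GRCm39 chr7:126641793-126641835, minus strand): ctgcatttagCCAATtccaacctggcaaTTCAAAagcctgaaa
Each stretch holds a CHR match close to a CCAAT match.

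DNA replication genes had a smaller median change. Of 51 genes, 30 were lower and 0 higher, with a median of -0.19. Rrm2, the inducible subunit of ribonucleotide reductase, was at 338, 327 and 342 CPM in the control libraries and 164, 169 and 174 CPM at 48 h, with no overlap and a change of -0.99 ± 0.045 (SE) on the log2 scale (adjusted p 6.82e-12). Mcm2 of the replicative helicase was at 511, 542 and 542 CPM in the control libraries and 493, 498 and 491 CPM at 48 h, with a log2 change of -0.11 and an adjusted p of 0.0439 that did not pass in 13 other settings. Of 11 tested histone genes, 5 were lower and 0 higher. Of 38 repair and checkpoint genes, 26 were lower and 1 higher, which was Timeless, at 146, 161 and 154 CPM in the control libraries and 179, 177 and 180.0 CPM at 48 h and with a change of 0.22 ± 0.051 (SE) on the log2 scale (adjusted p 0.00162).

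The regulators of the G1 phase were mixed. Of 34 genes, 20 were lower (58.8%) and 10 higher (29.4%), against 24.4% and 22.0% of all tested genes. Ccnd1, cyclin D1 (chromosome 7, 144483668 to 144493662), was at 251, 231 and 265 CPM in the control libraries and 105, 96.97 and 104 CPM at 48 h, with a change of -1.29 ± 0.056 (SE) on the log2 scale (adjusted p 3.71e-12), and it overlaps LTO1 on the opposite strand over 48.4% of its exons. Myc, the growth-promoting transcription factor, was at 129, 131 and 123 CPM in the control libraries and 80.6, 82.9 and 81.4 CPM at 48 h, with a change of -0.64 ± 0.053 (SE) on the log2 scale (adjusted p 1.49e-08). In both genes every 48 h library was below the control libraries. Gadd45a, a growth arrest gene, was at 23.2, 18.2 and 19.5 CPM in the control libraries and 45.99, 49.7 and 45.8 CPM at 48 h, higher with a change of 1.21 ± 0.092 (SE) on the log2 scale (adjusted p 5.38e-09). Cdkn2a, whose products restrain CDK4 and MDM2, was at 504, 531 and 453 CPM in the control libraries and 628, 633 and 601 CPM at 48 h, with a change of 0.32 ± 0.053 (SE) on the log2 scale (adjusted p 6.28e-05). Of other cell cycle brakes chosen after their values were seen, Cdkn1b (p27) had a log2 change of 0.47 (adjusted p 1.36e-06) and Cdkn1a (p21) of -0.086 (adjusted p 0.243). Gadd45a and Cdkn1b thus passed the test, while Cdkn1a did not.

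**Figure D4:**
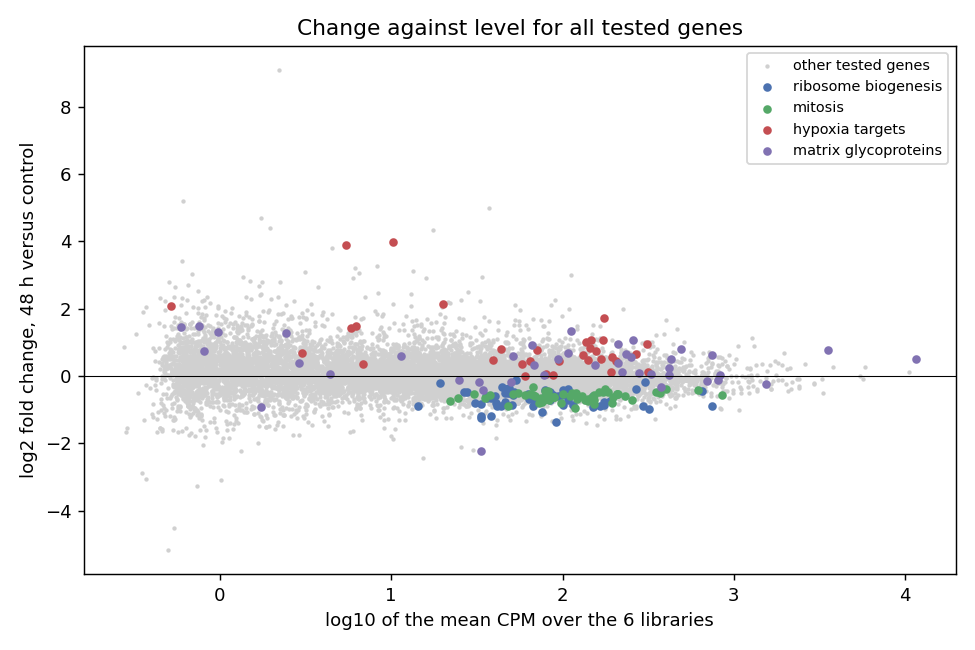
log2 fold change at 48 h versus control against the log10 of the mean CPM for all tested genes (grey), with 4 gene lists coloured. Ribosome biogenesis (blue) and mitosis (green) genes form a band below 0 at intermediate levels, hypoxia targets (red) lie above 0, and Fn1 is the rightmost matrix glycoprotein (violet).

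Hypoxia-responsive genes were higher almost throughout. Hypoxia-inducible factors (HIF) accumulate when prolyl hydroxylases lack oxygen and switch on genes of glucose use, pH control and collagen modification. Of 32 tested members, 26 were higher and 0 lower, against 22.0% and 24.4% of all genes, with a median of 0.67 and a sum that went from a control mean of 2753 CPM ± 24.7 to 4287 CPM ± 62.3 at 48 h (SD, n = 3 each). Ero1a, an oxidase of protein folding (chromosome 14, 45520544 to 45556228), was at 97.4, 90.4 and 95.7 CPM in the control libraries and 197, 196 and 207 CPM at 48 h. Its groups were far apart, with a change of 1.08 ± 0.052 (SE) on the log2 scale (adjusted p 1.17e-11). Bnip3, a receptor for the removal of mitochondria (chromosome 7, 138492565 to 138511248), was at 94.5, 91.5 and 86.5 CPM in the control libraries and 183, 186 and 179 CPM at 48 h, with a change of 1.01 ± 0.056 (SE) on the log2 scale (adjusted p 8.2e-11). Stc1, the secreted hormone stanniocalcin 1, was at 7.47, 5.72 and 9.10 CPM in the control libraries and 31.3, 33.4 and 33.7 CPM at 48 h, with a change of 2.14 ± 0.12 (SE) on the log2 scale (adjusted p 1.07e-10). Both of these genes had each 48 h library above the control range. Hif1a, the oxygen-regulated subunit itself, had a change of 0.64 ± 0.063 (SE) on the log2 scale (adjusted p 1.43e-07), and Vegfa, the vascular growth factor, a change of 0.47 ± 0.050 (SE) on the log2 scale (adjusted p 4.62e-07). Hif1a and Vegfa were picked after their values were seen. P4ha1, which had the highest CPM of the list, was at 302, 307 and 298 CPM in the control libraries and 321, 323 and 336 CPM at 48 h, with a log2 change of 0.11 and an adjusted p of 0.0569, and it passed in 7 other settings.

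The core to which HIF binds, ACGTG, was present in 17 of the 32 promoters on either strand, or 53.1%, against 25.2% of all. The alternative core GCGTG was present in 16 of 32, against 47.3%. Of the 26 higher genes, 14 held ACGTG and 13 held GCGTG, about the share of the whole list. Upstream stretches of 4 of the higher genes are shown with ACGTG or its complement in capitals, as examples chosen after their values were seen. A CACGTG palindrome reads as ACGTG on both strands.
Ero1a (GRCm39 chr14:45556075-45556106, minus strand): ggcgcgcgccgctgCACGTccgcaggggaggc
Bnip3 (GRCm39 chr7:138511324-138511358, minus strand): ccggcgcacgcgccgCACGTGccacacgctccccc
Bnip3l (GRCm39 chr14:67246458-67246489, minus strand): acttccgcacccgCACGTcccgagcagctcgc
Mxi1 (GRCm39 chr19:53317764-53317795, plus strand): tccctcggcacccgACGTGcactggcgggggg
Bnip3l, a relative of Bnip3, had a log2 change of 0.84 (adjusted p 5.35e-10), and Mxi1, an antagonist of MYC, of 0.80 (adjusted p 9.04e-08).

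Most glycolysis genes were higher. Of 25 genes, 20 were higher and 2 lower, with a median of 0.33, and the summed level went from a control mean of 12560.5 CPM ± 549 to 14598 CPM ± 99.7 at 48 h (SD, n = 3 each). Pfkfb3, which makes the activator of phosphofructokinase (chromosome 2, 11476244 to 11558888), was at 24.4, 26.7 and 29.8 CPM in the control libraries and 75.8, 74.3 and 80.2 CPM at 48 h. The 48 h libraries were well above the control libraries, with a change of 1.51 ± 0.074 (SE) on the log2 scale (adjusted p 1.57e-11). Pdk1, a kinase that inhibits pyruvate dehydrogenase, was at 92.98, 85.9 and 87.95 CPM in the control libraries and 174, 170.4 and 193 CPM at 48 h, with a change of 1.01 ± 0.059 (SE) on the log2 scale (adjusted p 1.5e-10). Gapdh, often used as a reference gene and picked after its value was seen, was at 63.6, 62.9 and 56.2 CPM in the control libraries and 79.2, 95.8 and 87.01 CPM at 48 h, with a change of 0.52 ± 0.079 (SE) on the log2 scale (adjusted p 2.97e-05). Gapdh has many processed pseudogenes, so its count is uncertain. Ldha, which makes lactate, was at 1749, 1839 and 1673 CPM in the control libraries and 1787, 1776 and 1754 CPM at 48 h, with overlapping libraries, a log2 change of 0.015 and an adjusted p of 0.777. Pkm, the one with the highest CPM in its list, was at 2390.2, 2619 and 2411 CPM in the control libraries and 2373, 2257 and 2293 CPM at 48 h, lower by a small amount (log2 fold change -0.10, adjusted p 0.0406) that did not pass in 9 other settings.

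Matrix genes were among those with the largest gains in CPM. By difference in mean CPM, 4 of the 10 leading higher genes encode matrix proteins or their crosslinker. Fn1, fibronectin (chromosome 1, 71624679 to 71692359), was at 9018, 9094 and 10323 CPM in the control libraries and 13710.4, 12941 and 14123 CPM at 48 h. Every 48 h library was above the control, with a change of 0.52 ± 0.048 (SE) on the log2 scale (adjusted p 6.21e-08). Thbs2, thrombospondin 2 (chromosome 17, 14885762 to 14914497), was at 2665, 2348 and 2751 CPM in the control libraries and 4372, 4520.1 and 4512 CPM at 48 h, without overlap and with a change of 0.79 ± 0.045 (SE) on the log2 scale (adjusted p 1.25e-10). Col3a1, the chain of type III collagen (chromosome 1, 45350698 to 45388866), was at 817, 777 and 818 CPM in the control libraries and 1759.6, 1777 and 1736 CPM at 48 h, with a change of 1.13 ± 0.038 (SE) on the log2 scale (adjusted p 2.16e-13). Lox, the oxidase that crosslinks collagen and elastin, was at 973, 852 and 908 CPM in the control libraries and 1619.9, 1693 and 1765 CPM at 48 h, with a change of 0.89 ± 0.048 (SE) on the log2 scale (adjusted p 6.43e-11). Thbs2, Col3a1 and Lox were thus higher in each 48 h library.

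Collagen chains were higher in 15 of 25 genes (60.0%) and lower in 6 (24.0%), against 22.0% and 24.4% of all tested genes, with a median of 0.31. The fibril-associated chains Col12a1 and Col14a1 had log2 changes of 0.89 and 0.98, while the type I chains moved little, with -0.14 for Col1a1 and 0.12 for Col1a2. Among the lower chains were Col6a3, at 340.2, 347 and 407 CPM in the control libraries and 230.0, 227 and 247 CPM at 48 h and with a change of -0.64 ± 0.063 (SE) on the log2 scale (adjusted p 1.76e-07), and the basement membrane chain Col4a1 with a log2 change of -0.53. Col12a1, Col4a1 and the type I chains were chosen after their values were seen. Plod2, the lysyl hydroxylase that prepares collagen crosslinks, was at 218, 204 and 219.8 CPM in the control libraries and 416, 408 and 413 CPM at 48 h, higher with a change of 0.95 ± 0.045 (SE) on the log2 scale (adjusted p 1.23e-11). Of the 27 genes of collagen processing 11 were higher (40.7%) and 6 lower (22.2%), with a median of 0.009.

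Of 42 proteoglycans, fibulins and other matrix glycoproteins, 23 were higher and 7 lower, with a median of 0.39 and a sum that went from a control mean of 21113 CPM ± 1105 to 28351 CPM ± 754 at 48 h (SD, n = 3 each). Ogn, osteoglycin, was at 63.8, 61.2 and 65.6 CPM in the control libraries and 167, 161 and 153 CPM at 48 h, with a change of 1.33 ± 0.073 (SE) on the log2 scale (adjusted p 7.35e-11). Dcn, decorin, was at 168, 163 and 165 CPM in the control libraries and 354, 358 and 337 CPM at 48 h, with a change of 1.08 ± 0.048 (SE) on the log2 scale (adjusted p 4.65e-12). Fbln1, fibulin 1, had a change of 0.96 ± 0.053 (SE) on the log2 scale (adjusted p 8.77e-11). Ogn and Dcn, both small leucine-rich proteoglycans that bind collagen, had separate groups. Spp1, osteopontin, had the largest loss of CPM of all genes, at 4015, 3861 and 3767 CPM in the control libraries and 2773, 2745 and 2712 CPM at 48 h, with a change of -0.50 ± 0.034 (SE) on the log2 scale (adjusted p 1.32e-09). Ecm1, extracellular matrix protein 1, was at 2388, 2493 and 2270.2 CPM in the control libraries and 1782, 1744 and 1763 CPM at 48 h, lower with a change of -0.44 ± 0.038 (SE) on the log2 scale (adjusted p 3.4e-08).

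Enzymes that cut the matrix changed as well. Of 31 metalloproteinases, ADAMTS proteases, TIMPs and plasminogen regulators, 19 were higher (61.3%) and 7 lower (22.6%), with a median of 0.34. The share of lower genes was near the 24.4% of all tested genes. Mmp13, collagenase 3 (chromosome 9, 7272514 to 7283331), was at 4.33, 2.94 and 3.84 CPM in the control libraries and 28.5, 28.3 and 27.97 CPM at 48 h. The 48 h libraries stood several times above the control, with a change of 2.91 ± 0.12 (SE) on the log2 scale (adjusted p 1.84e-12). Adamts15, which cleaves aggrecan and versican, was at 1.26, 1.31 and 1.05 CPM in the control libraries and 11.4, 11.4 and 10.7 CPM at 48 h, with a change of 3.20 ± 0.22 (SE) on the log2 scale (adjusted p 1.4e-09). Mmp3, stromelysin 1, had a change of 2.42 ± 0.15 (SE) on the log2 scale (adjusted p 5.3e-10). Timp2, an inhibitor of metalloproteinases, was at 2172, 2188 and 2178 CPM in the control libraries and 1820.3, 1878 and 1853 CPM at 48 h, lower with a change of -0.24 ± 0.033 (SE) on the log2 scale (adjusted p 9.83e-06).

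**Figure D5:**
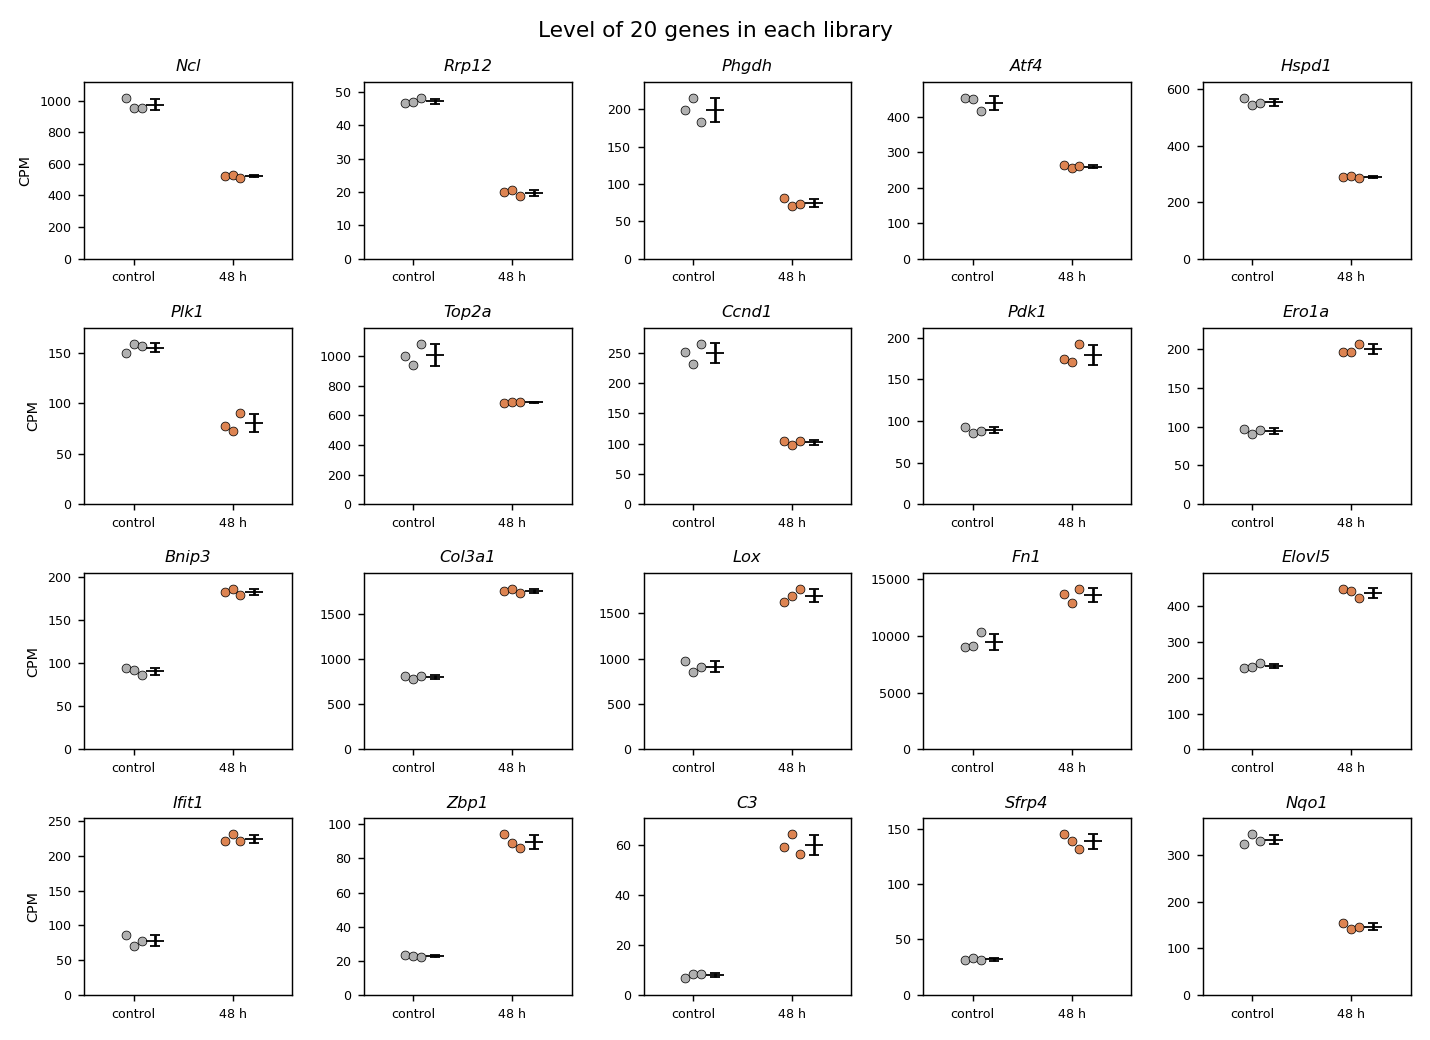
CPM of 20 genes in each of the 3 control libraries (grey) and the 3 libraries of 48 h (orange), with the mean ± SD of each group beside the points and each axis starting at 0. In none of the 20 genes do the groups overlap.

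Adhesion, cytoskeleton and growth factor genes went in both directions. Of 46 genes of the actin cytoskeleton and of SRF and YAP targets, 27 were lower and 4 higher, with a median of -0.19. Actb, cytoplasmic actin, was at 2715, 2737 and 2625 CPM in the control libraries and 2127, 2086 and 2081 CPM at 48 h, lower with a change of -0.36 ± 0.033 (SE) on the log2 scale (adjusted p 6.54e-08). Ccn1, a matricellular target of YAP, was at 109, 102 and 100.1 CPM in the control libraries and 44.96, 45.8 and 44.8 CPM at 48 h, with a change of -1.20 ± 0.058 (SE) on the log2 scale (adjusted p 1.5e-11), and its relative Ccn2 had a change of -0.62 ± 0.051 (SE) on the log2 scale (adjusted p 1.7e-08). Of 16 integrin subunits, 7 were higher (43.8%) and 5 lower (31.2%), against 22.0% and 24.4% of all tested genes. Itgb8, which activates latent TGF-β, was at 18.2, 15.4 and 19.9 CPM in the control libraries and 34.9, 42.5 and 41.7 CPM at 48 h, higher with a change of 1.15 ± 0.097 (SE) on the log2 scale (adjusted p 2.13e-08), and Itga6, a laminin receptor chain, was at 234, 217 and 249.7 CPM in the control libraries and 114, 123 and 122 CPM at 48 h, lower with a change of -0.97 ± 0.057 (SE) on the log2 scale (adjusted p 1.61e-10).

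Of 38 genes of TGF-β, activin and BMP signalling, 16 were higher (42.1%) and 9 lower (23.7%, near the 24.4% of all tested genes). Tgfb2, a ligand, was at 10.99, 9.73 and 11.5 CPM in the control libraries and 28.5, 28.2 and 29.7 CPM at 48 h, with a change of 1.42 ± 0.094 (SE) on the log2 scale (adjusted p 8.66e-10). Tgfbr3, the co-receptor betaglycan, was at 259, 242 and 289 CPM in the control libraries and 419, 435 and 445 CPM at 48 h, with a change of 0.72 ± 0.059 (SE) on the log2 scale (adjusted p 1.6e-08). Both were higher in each 48 h library. Pdgfra, a receptor for platelet-derived growth factor, was among the genes with the largest gain of CPM, at 765, 659.5 and 805 CPM in the control libraries and 1323, 1375 and 1414 CPM at 48 h, with a change of 0.88 ± 0.057 (SE) on the log2 scale (adjusted p 5.64e-10). Gja1, connexin 43, through which osteocytes exchange small molecules, was at 1520.3, 1408 and 1566 CPM in the control libraries and 2399, 2399.6 and 2441 CPM at 48 h, higher with a change of 0.69 ± 0.039 (SE) on the log2 scale (adjusted p 1.14e-10). Csf1, the macrophage growth factor that also supports osteoclasts (chromosome 3, 107648364 to 107667785), fell, at 1446, 1483 and 1397 CPM in the control libraries and 709, 699 and 719.9 CPM at 48 h and with a change of -1.02 ± 0.038 (SE) on the log2 scale (adjusted p 5.48e-13).

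Of 35 WNT receptors, ligands and inhibitors, 13 were higher (37.1%) and 6 lower (17.1%), against 22.0% and 24.4% of all tested genes. Sfrp4, a secreted WNT inhibitor (chromosome 13, 19807274 to 19817164), was at 31.3, 33.4 and 31.2 CPM in the control libraries and 145, 139 and 132 CPM at 48 h. The groups were widely separated, with a change of 2.11 ± 0.066 (SE) on the log2 scale (adjusted p 9.74e-14). Lrp4, which presents sclerostin to the WNT co-receptors, was at 14.2, 12.8 and 13.4 CPM in the control libraries and 31.8, 34.9 and 36.5 CPM at 48 h, with a change of 1.35 ± 0.087 (SE) on the log2 scale (adjusted p 6.02e-10). Ctnnb1, β-catenin, was at 674, 612 and 652 CPM in the control libraries and 728, 774 and 781 CPM at 48 h, with a change of 0.24 ± 0.045 (SE) on the log2 scale (adjusted p 0.000268). Of 19 Notch genes, 8 were higher (42.1%) and 3 lower (15.8%). Notch3 had a change of 1.42 ± 0.20 (SE) on the log2 scale (adjusted p 1.42e-05), and the Notch target Hes1 a change of -0.59 ± 0.17 (SE) on the log2 scale (adjusted p 0.00737). The call for Hes1 rested on 1 library, since without control library 1 its log2 change was -0.39 (adjusted p 0.0847). Of 13 genes of the IGF system, 9 were higher and 0 lower, with a median of 0.42. Irs1, the adaptor of insulin and IGF1 receptors, was at 21.6, 16.9 and 26.9 CPM in the control libraries and 32.2, 38.3 and 46.98 CPM at 48 h, with a change of 0.84 ± 0.14 (SE) on the log2 scale (adjusted p 5.2e-05).

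Genes of lipid synthesis were mostly higher. Of 24 genes of cholesterol synthesis and uptake, 16 were higher and 0 lower, with a median of 0.30. Idi1, an enzyme of the mevalonate pathway, was at 79.8, 68.6 and 81.1 CPM in the control libraries and 115, 123 and 119 CPM at 48 h, with a change of 0.64 ± 0.062 (SE) on the log2 scale (adjusted p 1.46e-07). Srebf2, the transcription factor that drives the pathway, was at 338, 356 and 357 CPM in the control libraries and 423, 405 and 431 CPM at 48 h, with a change of 0.26 ± 0.045 (SE) on the log2 scale (adjusted p 0.000121). Of 16 genes of fatty acid synthesis and desaturation, 9 were higher and 2 lower. Elovl5, which lengthens polyunsaturated fatty acids (chromosome 9, 77824646 to 77891801), was at 228, 231 and 241 CPM in the control libraries and 448, 442 and 422 CPM at 48 h, without overlap and with a change of 0.91 ± 0.047 (SE) on the log2 scale (adjusted p 4.01e-11). Scd1, the desaturase that makes oleate, was at 687, 678 and 725 CPM in the control libraries and 1002, 1001 and 1046 CPM at 48 h, with a change of 0.54 ± 0.040 (SE) on the log2 scale (adjusted p 3.72e-09). Of 32 genes of fatty acid uptake and oxidation, 13 were higher (40.6%) and 6 lower (18.8%), against 22.0% and 24.4% of all tested genes. Their median was 0.030. Acadm, the medium-chain dehydrogenase of β-oxidation, was at 104, 103 and 104 CPM in the control libraries and 236, 232 and 216 CPM at 48 h, with a change of 1.14 ± 0.052 (SE) on the log2 scale (adjusted p 6.1e-12), and Pparg, the adipogenic nuclear receptor, was at 5.84, 5.72 and 6.32 CPM in the control libraries and 3.43, 2.46 and 2.24 CPM at 48 h, lower with a change of -1.14 ± 0.21 (SE) on the log2 scale (adjusted p 0.000179). Other genes used by adipocytes were higher. Fabp4, a fatty acid carrier, was at 0.816, 0.491 and 0.451 CPM in the control libraries and 8.97, 7.85 and 8.49 CPM at 48 h, with a change of 3.79 ± 0.25 (SE) on the log2 scale (adjusted p 1.01e-09), and Lpl, lipoprotein lipase, was at 4.27, 2.94 and 2.26 CPM in the control libraries and 8.97, 9.47 and 8.27 CPM at 48 h, with a change of 1.47 ± 0.18 (SE) on the log2 scale (adjusted p 3.15e-06). The summed adipocyte markers given above were higher at 48 h as well, and their part in these lipid results was not tested.

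Lysosomal hydrolases and membrane proteins were higher in 26 of 49 genes (53.1%) and lower in 4 (8.16%), against 22.0% higher and 24.4% lower of all tested genes, with a median of 0.15. Psap, the precursor of the saposins, was at 2290.5, 2319 and 2236 CPM in the control libraries and 2874, 2994 and 2865 CPM at 48 h, with a change of 0.35 ± 0.036 (SE) on the log2 scale (adjusted p 2.95e-07). Grn, progranulin, was at 659.5, 686 and 641 CPM in the control libraries and 1001, 990.1 and 969 CPM at 48 h, with a change of 0.58 ± 0.040 (SE) on the log2 scale (adjusted p 1.78e-09). Both genes had separate groups. Of 17 subunits of the proton pump that acidifies the lysosome, 7 were lower (41.2%), 1 was higher and 9 were not called. Their median was -0.081, and 37.8% of genes with a mean of at least 100 CPM were lower. Of 40 autophagy genes, 19 were higher (47.5%) and 4 lower, and the receptor Sqstm1, at 749, 797 and 711 CPM in the control libraries and 612, 611 and 587 CPM at 48 h, was among the lower ones with a change of -0.32 ± 0.046 (SE) on the log2 scale (adjusted p 1.75e-05). Of 32 genes of ER chaperones and the unfolded protein response, 13 were lower (40.6%) and 8 higher (25.0%), the latter near the share of all genes. Hyou1, an ER chaperone, had a change of -0.52 ± 0.049 (SE) on the log2 scale (adjusted p 9.01e-08). Of 57 genes of transport from ER to Golgi, 20 were lower (35.1%), 3 higher (5.26%) and 34 not called, with a median of -0.067. The lower share did not exceed the 37.8%, and the higher share lay below the 26.7%, of genes with a mean of at least 100 CPM.

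Many interferon-inducible genes were higher, but not all. The guanylate-binding proteins and immunity-related GTPases attack the vacuoles of intracellular microbes and respond to interferon-γ. Of 16 such GTPases, 12 were higher and 0 lower, with a median of 0.93 and a summed level of 359, 339 and 352 CPM in the control and 575, 578 and 583 CPM at 48 h. Gbp7 was at 30.7, 27.9 and 36.1 CPM in the control libraries and 81.2, 81.7 and 82.7 CPM at 48 h, with a change of 1.37 ± 0.075 (SE) on the log2 scale (adjusted p 7.34e-11). Gbp2, the one with the highest CPM in its list, was at 95.6, 101 and 95.3 CPM in the control libraries and 158, 163 and 152 CPM at 48 h, with a change of 0.70 ± 0.056 (SE) on the log2 scale (adjusted p 1.07e-08). The groups did not overlap in either gene. These families hold similar copies, so counts can be shared among members.

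Of 46 genes stimulated by type I interferon, 31 were higher and 2 lower, with a median of 0.35. Ifit1, which binds foreign RNA caps (chromosome 19, 34618271 to 34627409), was at 86.1, 70.1 and 77.3 CPM in the control libraries and 221, 231 and 221 CPM at 48 h. All 48 h libraries were above the control libraries, with a change of 1.52 ± 0.070 (SE) on the log2 scale (adjusted p 6.82e-12). Zbp1, a sensor of Z-form nucleic acid (chromosome 2, 173048405 to 173060716), was at 23.4, 22.9 and 22.3 CPM in the control libraries and 94.04, 89.3 and 86.1 CPM at 48 h, with a change of 1.97 ± 0.072 (SE) on the log2 scale (adjusted p 5.13e-13). Bst2, tetherin, was at 107, 117 and 101 CPM in the control libraries and 87.1, 77.6 and 86.7 CPM at 48 h, lower with a change of -0.37 ± 0.077 (SE) on the log2 scale (adjusted p 0.000598). Usp18, which trims ISG15 from proteins and was chosen after its value was seen, was not called, with a log2 change of -0.16 and an adjusted p of 0.143. Stat2, a transcription factor of the interferon response that was also chosen so, was at 81.9, 90.8 and 90.9 CPM in the control libraries and 217, 206 and 207 CPM at 48 h, higher with a change of 1.26 ± 0.058 (SE) on the log2 scale (adjusted p 7.81e-12).

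The interferon-stimulated response element was read as 2 copies of GAAA with 2 bases of any kind between them, on both strands. It occurred in 3.64% of the 13773 promoters, in 9 of the 16 GTPase promoters and in 21 of 46 of the type I list. Within the type I list, 11 of 31 higher genes and both of the lower genes held it. The other matches lay among the 13 genes without a call, and the share over the whole list was 45.7%. The element is shown in 4 higher genes and in 2 genes without a call, Usp18 and Rtp4, because genes with and without a change carried the same letters. The 6 genes were chosen after their values were seen.
Ifit1 (GRCm39 chr19:34618176-34618221, plus strand): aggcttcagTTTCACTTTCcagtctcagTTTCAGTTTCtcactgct
Zbp1 (GRCm39 chr2:173060745-173060823, minus strand): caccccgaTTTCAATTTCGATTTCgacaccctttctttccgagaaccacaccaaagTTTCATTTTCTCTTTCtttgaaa
Rsad2 (GRCm39 chr12:26506551-26506583, minus strand): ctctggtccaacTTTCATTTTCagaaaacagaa
Oas2 (GRCm39 chr5:120887969-120888001, minus strand): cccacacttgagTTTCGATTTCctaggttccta
Usp18 (GRCm39 chr6:121222773-121222824, plus strand): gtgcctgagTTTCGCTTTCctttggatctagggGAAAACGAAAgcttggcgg
Rtp4 (GRCm39 chr16:23428586-23428643, plus strand): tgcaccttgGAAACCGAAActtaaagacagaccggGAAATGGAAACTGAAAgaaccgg
Rsad2, viperin, had a change of 2.07 ± 0.15 (SE) on the log2 scale (adjusted p 3.64e-09) and Oas2, an oligoadenylate synthetase, a change of 1.30 ± 0.15 (SE) on the log2 scale (adjusted p 1.13e-06). Rtp4 had a log2 change of 0.083 and an adjusted p of 0.419.

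Antigen presentation by MHC class I went in both directions. Of 23 genes, 6 were higher and 6 lower, against 22.0% and 24.4% of all genes, and the median of -0.039 changed sign with a stricter filter and without single libraries. H2-K1, a classical heavy chain, was at 578, 596 and 557 CPM in the control libraries and 457, 449.6 and 435 CPM at 48 h, lower with a change of -0.37 ± 0.042 (SE) on the log2 scale (adjusted p 1.11e-06). Nlrc5, the transactivator of this pathway, was at 25.5, 22.98 and 26.7 CPM in the control libraries and 42.5, 38.9 and 41.7 CPM at 48 h, higher with a change of 0.71 ± 0.075 (SE) on the log2 scale (adjusted p 3.98e-07). H2-T23, a non-classical chain, had a change of 0.90 ± 0.070 (SE) on the log2 scale (adjusted p 8e-09). Heavy chain genes are close copies of each other, and their counts are uncertain.

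Many of the complement and acute phase genes that passed the filter were higher. Of 27 complement components and regulators 15 were tested, of which 9 were higher and 1 lower, with a median of 0.97. Cfb, Cfi, Serping1 and C1qa were among the untested members, with at most 5 reads in any library. C3, the central component (chromosome 17, 57510970 to 57535136), was at 6.91, 8.42 and 8.28 CPM in the control libraries and 58.8, 64.00 and 56.4 CPM at 48 h. The 48 h libraries were several times above the control, with a change of 2.93 ± 0.095 (SE) on the log2 scale (adjusted p 1.56e-13). Clu, clusterin, was at 2.57, 3.03 and 2.63 CPM in the control libraries and 23.3, 27.5 and 20.9 CPM at 48 h, with a change of 3.12 ± 0.16 (SE) on the log2 scale (adjusted p 1.87e-11). The 1 lower gene, C1qbp, encodes a mitochondrial matrix protein and had a change of -0.69 ± 0.064 (SE) on the log2 scale (adjusted p 6.76e-08). Of 25 acute phase and metal-binding genes 19 were tested, of which 10 were higher (52.6%) and 4 lower (21.1%, near the 24.4% of all tested genes). Saa1 and Saa2 were not tested, with at most 3 reads in any library. Hp, haptoglobin (chromosome 8, 110301760 to 110305804), was at 23.1, 24.6 and 26.6 CPM in the control libraries and 196, 211 and 189.6 CPM at 48 h, with a change of 3.01 ± 0.076 (SE) on the log2 scale (adjusted p 4.88e-15). Tfrc, the transferrin receptor, was at 236, 209 and 239.9 CPM in the control libraries and 93.3, 103 and 102 CPM at 48 h, lower with a change of -1.19 ± 0.060 (SE) on the log2 scale (adjusted p 1.97e-11). Fth1, ferritin heavy chain, was at 3533, 3657 and 2996 CPM in the control libraries and 3266, 3095 and 3140.2 CPM at 48 h, with overlapping libraries, a log2 change of -0.10 and an adjusted p of 0.132.

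Nos2, the inducible nitric oxide synthase (chromosome 11, 78811613 to 78851080), was the only tested gene with 0 reads in all 3 control libraries and at least 10 in each 48 h library. It had 73, 80 and 81 reads at 48 h, a mean of 4.43 CPM. Against the limit of 3 counts per library that a count of 0 allows, a mean of 0.219 CPM in the control, Nos2 was at least 20.2-fold higher. It lies below the mean of 5 CPM asked of named genes and was chosen after its values were seen. In the other direction, by the same choice, the muscle regulator Myod1 had 17, 13 and 13 reads in the control and 0, 1 and 1 at 48 h.

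Of 23 genes of the IL-6 family, its receptors and STAT3 feedback, 11 were higher and 3 lower, with a median of 0.39. Osmr, the oncostatin M receptor (chromosome 15, 6843058 to 6904450), was at 211, 205 and 219 CPM in the control libraries and 479.5, 489 and 514 CPM at 48 h, with a change of 1.22 ± 0.046 (SE) on the log2 scale (adjusted p 7.23e-13). Il6st, the shared receptor chain gp130, was at 326, 308 and 373 CPM in the control libraries and 532, 527 and 592 CPM at 48 h, with a change of 0.71 ± 0.066 (SE) on the log2 scale (adjusted p 6.72e-08). Socs3, the inhibitor induced by STAT3, was at 62.3, 68.8 and 57.3 CPM in the control libraries and 120.0, 120.3 and 121 CPM at 48 h, with a change of 0.94 ± 0.068 (SE) on the log2 scale (adjusted p 2.65e-09). All 3 receptor and feedback genes were higher in each 48 h library. Of 32 NF-κB subunits, inhibitors and TNF response genes, 12 were higher (37.5%) and 4 lower (12.5%). Nfkbiz, a nuclear cofactor of NF-κB, was at 66.05, 65.2 and 68.5 CPM in the control libraries and 169, 179.6 and 181 CPM at 48 h, higher with a change of 1.41 ± 0.061 (SE) on the log2 scale (adjusted p 3.88e-12). Traf1, an adaptor of TNF receptors, was at 10.9, 9.32 and 6.997 CPM in the control libraries and 3.14, 2.34 and 3.31 CPM at 48 h, lower with a change of -1.63 ± 0.18 (SE) on the log2 scale (adjusted p 7.04e-07). Of 25 chemokines 11 were tested, of which 4 were higher (36.4%) and 3 lower (27.3%, near the 24.4% of all tested genes). Ccl3 and Ccl20 were among the untested ones, with 0 reads in all 6 libraries. Cxcl5, a neutrophil attractant, was at 30.5, 31.1 and 33.1 CPM in the control libraries and 91.4, 97.1 and 82.4 CPM at 48 h. Its change was 1.52 ± 0.080 (SE) on the log2 scale (adjusted p 4.34e-11). Ccl7, a monocyte attractant, was at 42.1, 39.7 and 38.1 CPM in the control libraries and 16.2, 18.5 and 17.1 CPM at 48 h. Its change was -1.21 ± 0.075 (SE) on the log2 scale (adjusted p 3.78e-10). Of 15 prostaglandin genes, 7 were lower and 3 higher, and Ptgs2, the inducible cyclooxygenase, was at 53.99, 44.2 and 53.9 CPM in the control libraries and 29.5, 32.1 and 27.3 CPM at 48 h, lower with a change of -0.78 ± 0.086 (SE) on the log2 scale (adjusted p 6.73e-07).

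Many antioxidant genes were lower. Of 43 targets of NRF2 and genes of glutathione and redox defence, 23 were lower (53.5%) and 10 higher (23.3%), against 22.0% higher and 24.4% lower of all tested genes, with a median of -0.17. Nqo1, a quinone reductase (chromosome 8, 108114857 to 108129838), was at 324, 344 and 331 CPM in the control libraries and 154, 140.5 and 145 CPM at 48 h. The 48 h libraries were all below the control, with a change of -1.18 ± 0.050 (SE) on the log2 scale (adjusted p 2.46e-12). Txnrd1, thioredoxin reductase, was at 1125, 1106 and 1129.7 CPM in the control libraries and 553, 566 and 569 CPM at 48 h, with a change of -0.99 ± 0.036 (SE) on the log2 scale (adjusted p 5.13e-13). Gsta4, a glutathione transferase for lipid aldehydes, had a change of -1.35 ± 0.067 (SE) on the log2 scale (adjusted p 1.97e-11). Higher members, chosen after their values were seen, included Gpx3, a secreted peroxidase with a change of 1.06 ± 0.057 (SE) on the log2 scale (adjusted p 5.69e-11), and Sod3, an extracellular superoxide dismutase with a change of 0.85 ± 0.20 (SE) on the log2 scale (adjusted p 0.00227). The antioxidant response element, read as TGACNNNGC on either strand, was in 8 of the 43 promoters, or 18.6%, against 13.4% of all promoters. Of these 8, 7 belonged to lower genes and 0 to higher genes.

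Clock genes were higher in 14 of 22 cases and lower in 0, with a median of 0.34. Nfil3, a repressor of D-box genes, was at 29.7, 26.7 and 25.1 CPM in the control libraries and 67.2, 70.5 and 64.1 CPM at 48 h, with a change of 1.30 ± 0.077 (SE) on the log2 scale (adjusted p 2.01e-10). Rora, an activator of Arntl, was at 20.7, 18.1 and 21.3 CPM in the control libraries and 41.99, 39.6 and 45.1 CPM at 48 h, with a change of 1.07 ± 0.091 (SE) on the log2 scale (adjusted p 2.4e-08). Both had separate groups. Per1, a repressor of the loop that was chosen after its value was seen, had a change of 0.70 ± 0.094 (SE) on the log2 scale (adjusted p 6.71e-06), while the core activators Arntl and Clock had log2 changes of 0.11 (adjusted p 0.342) and -0.24 (adjusted p 0.0501). Collection times of day are not stated, so time of harvest cannot be told apart from the treatment. Of 33 immediate early and AP-1 genes, 12 were lower (36.4%) and 10 higher (30.3%), against 24.4% and 22.0% of all tested genes. Fosl2, an AP-1 subunit, was at 161, 149 and 171 CPM in the control libraries and 267, 268 and 302 CPM at 48 h, higher with a change of 0.80 ± 0.066 (SE) on the log2 scale (adjusted p 1.44e-08), and Egr3, an early growth response factor, was at 21.7, 23.9 and 23.7 CPM in the control libraries and 12.4, 10.8 and 8.33 CPM at 48 h, lower with a change of -1.14 ± 0.12 (SE) on the log2 scale (adjusted p 2.15e-07).

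Osteocyte and osteoblast markers did not move together. Of the 23 tested, 8 were lower and 6 higher, against 24.4% and 22.0% of all genes. Ank, which exports pyrophosphate, was at 217, 206 and 217 CPM in the control libraries and 133, 127 and 133 CPM at 48 h, lower with a change of -0.70 ± 0.054 (SE) on the log2 scale (adjusted p 6.83e-09). Phex, a protease of phosphate control that was named after its value was seen, was at 15.9, 12.8 and 14.97 CPM in the control libraries and 19.3, 20.6 and 19.4 CPM at 48 h, higher with a change of 0.43 ± 0.10 (SE) on the log2 scale (adjusted p 0.0024). Cd44, the hyaluronan receptor, was at 341, 309 and 345 CPM in the control libraries and 219, 225 and 226 CPM at 48 h, lower with a change of -0.57 ± 0.050 (SE) on the log2 scale (adjusted p 3.34e-08). Sp7, the osteoblast transcription factor osterix, was at 1.38, 2.13 and 2.41 CPM in the control libraries and 0.800, 0.839 and 1.12 CPM at 48 h and had a log2 change of -1.07 (adjusted p 0.0139), and it was named after its value was seen.

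Families taken by symbol were set against the 22.0% higher and 24.4% lower of all tested genes. Of 318 zinc finger genes of the Zfp series, 81 were higher (25.5%), near the share of all genes, and 17 lower (5.35%), with a median of 0.11. Of 25 cadherins and protocadherins, 16 were higher (64.0%) and 4 lower (16.0%), with a median of 0.92. The clustered Pcdhb genes among them are close copies, so their counts are uncertain. Of 198 solute carriers, 48 were higher (24.2%) and 46 lower (23.2%), both near the shares of all genes. Of 38 mitochondrial carriers, 13 were lower (34.2%) and 6 higher (15.8%). By gene type, 203 of 1013 long non-coding RNAs were higher and 46 lower (4.54%), so that 24.6% were called against 46.4% of all genes, with both directions below their share. Of 644 processed pseudogenes, 30 were higher (4.66%) and 105 lower (16.3%), again both below, and these can share reads with the ribosomal and other genes they copy. The long non-coding RNAs held 0.475% of the control CPM and the processed pseudogenes 0.914%. In abundance bins 1 to 3, 10.6%, 20.6% and 22.9% of genes were higher and 4.12%, 7.02% and 13.5% lower. The part of low level in the shares of both gene types was not tested. The median log2 change of single nuclear chromosomes ran from -0.025 to 0.052.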

How the data were processed

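RNA of MLO-Y4 cells from 3 groups of 3 libraries was sequenced from directional paired-end libraries. According to the labels and methods, the authors aligned trimmed reads to GRCm39 with HISAT2 and deposited raw counts per gene made with featureCounts (version 2.06 in the submitters' processing notes, another in the protocol). The methods also name RSEM. The strand setting and treatment of multi-mapping reads are not given in the sources used here, so overlapping genes and close copies are uncertain. Members and gene lists were chosen with earlier results of these data known.

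Genes were filtered with filterByExpr (minimum count 10) and TMM-scaled, and 9 libraries were fitted with edgeR 4.0.16 (glmQLFit, glmQLFTest, R 4.3.3, 6 residual degrees of freedom). The contrast was 48 h minus control, with Benjamini-Hochberg adjusted p over 13812 genes and a threshold of 0.05. CPM and log2 changes were computed from the counts. The pipeline was tested on simulated data. Among members with a mean of at least 5 CPM, named genes were, per list, the 3 called members with the largest change in the leading direction, the called member with the largest opposite change and the member with the highest mean. Over all genes they were the 10 leading in each direction by CPM difference and by log2 change. Others are said to be chosen after their values were seen, or stand as list exceptions, pathway ends or markers. Promoter letters come from the GRCm39 genome around the starts of canonical GENCODE transcripts, which were found for 13773 genes. Motifs were searched with pandas 2.3.3 and pysam 0.24.0. Further searches follow, with the share of all promoters in brackets. TTCCNGGAA was in 0 of 23 promoters of the IL-6 list and 3 of 16 of the GTPase list (1.27%). TCACNCCAC was in 1 of 24 cholesterol promoters (1.3%), and TTATGTAA in 2 of 22 clock promoters (0.545%). CACGTG was in 9 of 60 ribosome biogenesis promoters (9.5%). The interferon-stimulated response element was in 3 of 23 MHC class I promoters (3.64%). Alternatives covered scaling, filters, samples, block, tool, threshold and fold.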

Additional observations from a re-analysis of the deposited data

How the results depend on the processing

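Across 18 alternatives per direction, the count of higher and lower genes stayed within 1.5 times 3039 and 3369 except where a fold was required. A test against a 1.2-fold change (edgeR glmTreat) called 1472 higher and 1433 lower genes, and a minimum absolute log2 change of 1 left 525 and 180. Leaving out 1 library at a time gave 2616 to 3200 higher and 2839 to 3239 lower genes. Upper-quartile scaling gave 3339 and 3012, library totals 3242 and 3115, and DESeq2 2904 and 2996. The deviations of same-numbered libraries from their group means had correlations of -0.049, 0.0047 and 0.077. Those of differently numbered libraries ran from -0.097 to 0.095. With 3 libraries per group these values cannot decide whether the numbers pair the samples. With the replicate block the counts were 3088 and 3380. The median of the MHC class I list (-0.039) was 0.034 at a minimum count of 30 and ran from -0.067 to 0.059 without single libraries. The median of collagen processing (0.009) was -0.045 without the 50 most abundant genes. In all, 34 of 54 list medians moved by more than the replicate spread without a change of sign in at least 1 alternative (83 values). In 2 lists, MHC class I and collagen processing, 4 further values moved that far with a change of sign. The widest move was that of collagen chains, from 0.31 to 0.58 at a minimum count of 30. Medians at that minimum count, or without the 50 most abundant genes, cover only the members still tested. Eef1a1 (no call) was at 0.012 with library totals, 0.02 with upper quartiles, 0.004 with relative log expression, 0.0 at a minimum count of 30 and 0.004 with DESeq2, and from -0.022 to 0.026 without single libraries. Ldha (no call) ran from -0.004 to 0.061. The cause of these shifts in Eef1a1 and Ldha was not tested. Of 160 named genes, 7 lost the call in some alternative, which were Col1a2, Hes1, Mcm2, Pdpn, Pkm, Slc7a11 and Sp7, and 3 gained one, which were Clock, Fth1 and P4ha1. Hes1 lost it without control library 1 (log2 change -0.39), Sp7 without control library 3 (-0.88) and Pdpn without 48 h library 2 (0.12). Slc7a11 lost it without 4 of the 6 libraries taken singly, with changes from -0.84 to -0.65. Depth limits the low genes, of which 14.8% were called in the lowest bin of abundance.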
